A study of Mus musculus with 24 samples.

Results

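Maternal separation was compared with normal rearing among mice that all received EC-12, a supplement of heat-killed Enterococcus faecalis, a gut bacterium. The readout was RNA-seq of prefrontal cortex, taken from wild-type males as adults. The comparison set the 6 libraries of MS_EC12 (pups separated from the dam, EC-12 given) against the 6 of Control_EC12 (no separation, EC-12 given), 12 of the 24 libraries of the series. The other 12 libraries came from mice without the supplement, 6 of MS (separated) and 6 of Control (not separated), and gave the same rearing contrast with no library in common. EC-12 was given for 5 weeks per the labels, and both groups compared here carried it. The sources used here give neither the strain nor the exact age, the dose or the schedule of separation. The title of the series frames the study as a test of whether EC-12 reverses a social deficit that separation causes. All genes tested were described, 18380 of the 45777 in the deposited table. Whether each library stands for its own mouse is not in the labels, so p-values here cover the spread of libraries, which may in part be technical.

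Markers of cortex were present in all 12 libraries, and they do not mark the prefrontal part in particular. Slc17a7, the vesicular glutamate transporter of cortical excitatory neurons, lay between 827.5 and 1219 TPM (the length-scaled level the authors deposited) in the 12 libraries, and Camk2a, a kinase of excitatory neurons, between 1091 and 1770 TPM. None of the 13 cortical marker genes changed. Total counts ran from 29804781 to 39252382 in MS_EC12 and from 26250197 to 33899807 in Control_EC12 (exact 2-sided permutation p = 0.0606). Some libraries stood apart by their GC slope, the slope of a library's expression on the GC content of genes. It was above 0 in replicates 3, 4, 5 and 6 of MS_EC12 and in replicates 3 and 4 of Control_EC12, and below 0 in the rest, so leading results are also given for the libraries of slope below 0, called the low-slope libraries. These were 2 of MS_EC12, 4 of Control_EC12, 5 of MS and 6 of Control, 17 in all, fitted together with 1 shared estimate of the spread, and the low-slope log2 fold changes below compare the 2 MS_EC12 with the 4 Control_EC12 libraries. Replicate 6 of MS_EC12 also stood apart: its summed level of 17 choroid plexus and ependymal genes was 772 CPM (counts scaled to library size), against 40.0 to 63.3 CPM in Control_EC12.

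Several gene groups described here have well-known controls. Corticosterone, the glucocorticoid of mice, enters brain cells, binds the glucocorticoid receptor encoded by Nr3c1, and the receptor then switches on genes such as Fkbp5, whose product is a co-chaperone that dampens the same receptor. Immediate early genes such as Fos and Nr4a3 are transcribed within minutes of neuronal firing, in part through the factor CREB. Chaperones of the endoplasmic reticulum fold proteins on the secretory route, and their genes are switched on together by the unfolded protein response.

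Upstream sequences are shown for 4 genes of these groups that changed, because the letters behind these controls can be looked for in them. Each is the 250 bases before the gene's start in RefSeq (assembly GRCm38.p6, the assembly behind mm10), on the gene's own strand. In Creld2, Pdia4 and Sdf2l1, which are endoplasmic reticulum genes, capitals mark the CCAAT box (CCAAT on either strand). All 3 were also searched for the element of the unfolded protein response (CCAAT and CCACG with 9 bases between them, either strand), which was found in Creld2 alone, in capitals over its full length and sharing a CCAAT box. In Fos, capitals mark TGACG, the core bound by CREB, on either strand.
Creld2, chr15:88819396-88819645, + strand: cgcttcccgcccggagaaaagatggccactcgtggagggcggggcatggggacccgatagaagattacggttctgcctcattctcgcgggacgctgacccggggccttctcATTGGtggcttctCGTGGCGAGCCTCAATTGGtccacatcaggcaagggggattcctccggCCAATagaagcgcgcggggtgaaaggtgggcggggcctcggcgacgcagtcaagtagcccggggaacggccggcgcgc
Pdia4, chr6:47813513-47813762, - strand: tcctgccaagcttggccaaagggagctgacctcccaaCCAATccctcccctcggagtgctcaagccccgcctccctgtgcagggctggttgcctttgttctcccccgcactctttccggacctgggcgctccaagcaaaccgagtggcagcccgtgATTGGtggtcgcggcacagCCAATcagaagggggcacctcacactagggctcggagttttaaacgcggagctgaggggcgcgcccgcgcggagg
Sdf2l1, chr16:17132384-17132633, - strand: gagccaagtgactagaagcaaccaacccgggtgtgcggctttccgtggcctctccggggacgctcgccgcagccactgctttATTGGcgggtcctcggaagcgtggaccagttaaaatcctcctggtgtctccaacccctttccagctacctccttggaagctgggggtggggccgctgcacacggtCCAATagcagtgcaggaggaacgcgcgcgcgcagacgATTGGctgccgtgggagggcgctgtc
Fos, chr12:85473640-85473889, + strand: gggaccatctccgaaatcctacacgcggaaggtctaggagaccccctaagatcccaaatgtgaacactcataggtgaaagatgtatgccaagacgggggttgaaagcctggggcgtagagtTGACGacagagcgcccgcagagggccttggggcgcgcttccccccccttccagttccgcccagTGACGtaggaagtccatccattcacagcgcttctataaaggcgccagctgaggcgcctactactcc
Creld2, Pdia4 and Sdf2l1 each held 3 CCAAT boxes. Of the 27025 windows of this kind, 34.5% held at least 1 and 2.98% held 3 or more. The longer element was in the Creld2 window and in 0.122% of all windows. Fos held 2 TGACG matches, and 3.99% of windows held 2 or more. These matches are descriptions of the letters and not shown binding sites.

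In MS_EC12 compared with Control_EC12, 37 genes rose (0.201% of those tested) and 11 fell (0.0598%), 48 in all (0.261%), by edgeR's quasi-likelihood test with Benjamini-Hochberg adjusted p under 0.05. At an unadjusted p under 0.05 there were 2924 genes (15.9%), 1447 higher (7.87%) and 1477 lower (8.04%). The changes were mostly small: the 37 had a median log2 fold change of 0.63 and the 11 of −0.76, with a median of −0.02 over all genes. In 28 of the 48 the 6 MS_EC12 libraries did not overlap the 6 Control_EC12 libraries, 23 higher and 5 lower, and over all genes 0.468% did not overlap, 0.288% higher and 0.18% lower. Each of the 48 had the same direction in the low-slope libraries (medians 0.54 and −0.62) and in the libraries of slope above 0 (medians 0.74 and −0.55). The 48 were chosen over these same libraries, which fixes part of that agreement. The fit of the 17 low-slope libraries called 31 genes for MS_EC12 over Control_EC12 (0.162% of 19098), of which 10 were among the 48: Plin4, Fkbp5, Camk1g, Xdh, Smim3, TrnL2, Hif3a, Nr4a3, Thbs1 and Pak7. The libraries of slope above 0 called 0 genes by the same edgeR test (0% of 19418) and 764 at an unadjusted p under 0.05 (3.93%). A fit of the 12 libraries alone, with its own estimate of the spread, tested 17622 genes and called 2, Plin4 and Xdh. Why it called fewer was not tested. When each of the 12 libraries was left out in turn, the count ran from 14, without replicate 6 of Control_EC12, to 186, without its replicate 3. Of the 48, 13 passed every time: Plin4, Fkbp5, Camk1g, Xdh, Smim3, Hspa12b, Prr5, Pglyrp1, Map3k6 and Smad3, which rose, and Nr4a3, Thbs1 and Insig1, which fell.

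**Figure D1:**
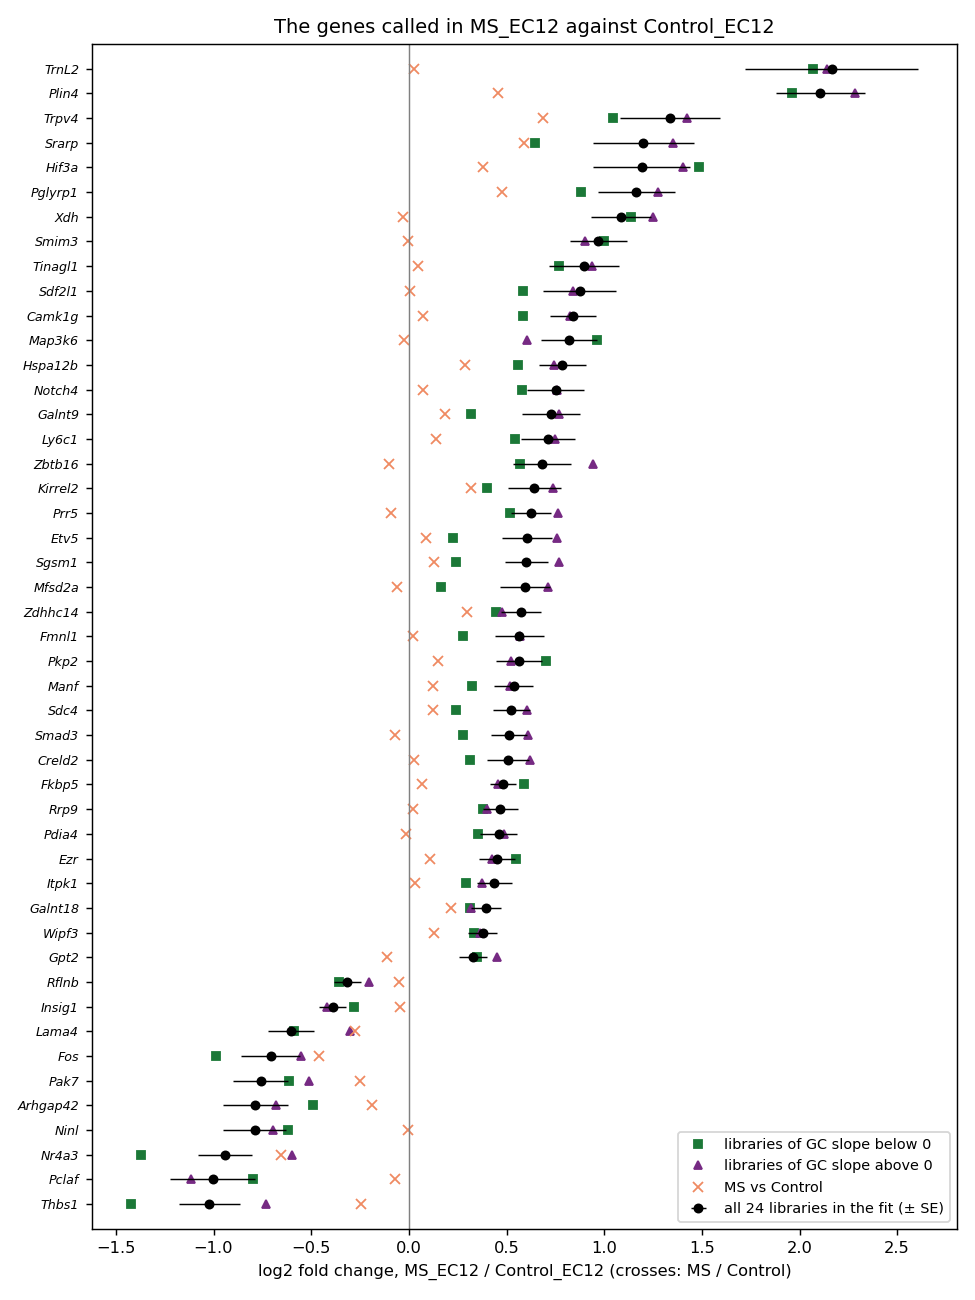
Log2 fold change of 47 of the 48 genes that changed, one row a gene, with all 24 libraries in the fit (black points, bars ± SE), in the libraries of GC slope below 0 (squares) and above 0 (triangles), and for MS over Control (crosses). All squares and triangles lie on the same side of 0 as the black points, while the crosses of the 37 higher genes have a median of 0.07. Squares and triangles split the libraries by which the genes were chosen, which fixes part of their agreement.

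The genes with the smallest p among those that rose included several that glucocorticoids are known to induce. Of 24 genes on a glucocorticoid-induced list, 5 rose and 0 fell: Plin4, Fkbp5, Map3k6, Mfsd2a and Zbtb16. The list's median log2 fold change was 0.23, with 16 of 24 above 0, where 46.5% of all genes were. In the low-slope libraries its median was 0.05, with 3 members higher and 1 lower by the same edgeR test. With the GC slope as a covariate 3 were higher (Plin4, Fkbp5 and Map3k6) and 1 lower, with a GC offset per gene 4 were higher and 2 lower, and in the libraries of slope above 0 none was called. The members ranged from −0.92 to 2.11.

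Plin4 encodes a coat protein of lipid droplets and lies at chr17:56100587-56109948 (GRCm38.p6), where it overlaps Hdgfl2. It had 5.05, 6.94 and 7.88 CPM (lowest, median and highest) in MS_EC12, against 1.04, 1.37 and 2.45 CPM in Control_EC12. Every MS_EC12 library was above every Control_EC12 library, and the log2 fold change of 2.11 ± 0.23 (SE, n = 6 libraries a group here and below) corresponded to 4.31-fold (edgeR adjusted p = 3.01e-05). Each SE here and below used the spread estimated over all libraries of the series, including those outside the comparison. With the compared libraries fitted alone, the SE was 0.21 for Plin4. It was then 0.083 for Fkbp5, against 0.068 over the series, and 0.17 for Pak7, against 0.14. In the low-slope libraries the log2 fold change of Plin4 was 1.96 (edgeR adjusted p = 0.0133). The medians of the mice without the supplement lay in between: levels were 2.33, 3.86 and 6.24 CPM in MS and 2.35, 2.51 and 4.51 CPM in Control.

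Fkbp5 (chr17:28398753-28486149), the co-chaperone of the glucocorticoid receptor, had 38.6, 42.6 and 51.4 CPM in MS_EC12, against 29.6, 30.6 and 32.7 CPM in Control_EC12. The groups did not overlap, and the log2 fold change was 0.48 ± 0.07 (edgeR adjusted p = 0.00113), with 0.59 in the low-slope libraries (edgeR adjusted p = 0.00365). The medians of MS (34.4, 36.5 and 41.5 CPM) and Control (33.8, 35.5 and 38.7 CPM) again lay between those of the supplemented groups. Map3k6, a stress-responsive kinase, rose by a log2 fold change of 0.82 ± 0.14 (edgeR adjusted p = 0.0104). It had 3.61, 4.20 and 4.57 CPM in MS_EC12 against 1.72, 2.16 and 3.17 CPM in Control_EC12, with no overlap, and its low-slope value was 0.97 (edgeR adjusted p = 0.0552). Zbtb16, a zinc finger transcription factor, had 44.2 to 51.6 CPM in MS_EC12 and 16.5 to 38.8 CPM in Control_EC12, a log2 fold change of 0.68 ± 0.15 (edgeR adjusted p = 0.0444), with 0.57 in the low-slope libraries (adjusted p = 0.179). Mfsd2a, the lipid transporter of the blood-brain barrier, had 16.1, 24.3 and 30.5 CPM in MS_EC12 against 14.3, 15.7 and 17.5 CPM in Control_EC12, with 0.59 ± 0.13 (edgeR adjusted p = 0.0444) over all libraries and 0.16 in the low-slope libraries. The glucocorticoid receptor gene itself, Nr3c1, did not pass (−0.23, edgeR adjusted p = 0.355), nor did Crhr1, a receptor of corticotropin-releasing hormone (−0.05, adjusted p = 0.815).

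Hif3a, a hypoxia-inducible factor chosen after its values were seen, had 4.38, 5.32 and 11.1 CPM in MS_EC12 against 1.66, 2.45 and 4.21 CPM in Control_EC12. Its log2 fold change was 1.19 ± 0.25 over all libraries (edgeR adjusted p = 0.0339) and 1.49 in the low-slope libraries (edgeR adjusted p = 0.0403). Its highest library was replicate 1 of MS_EC12, which was also the highest of that group for Fkbp5 and Zbtb16.

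**Figure D2:**
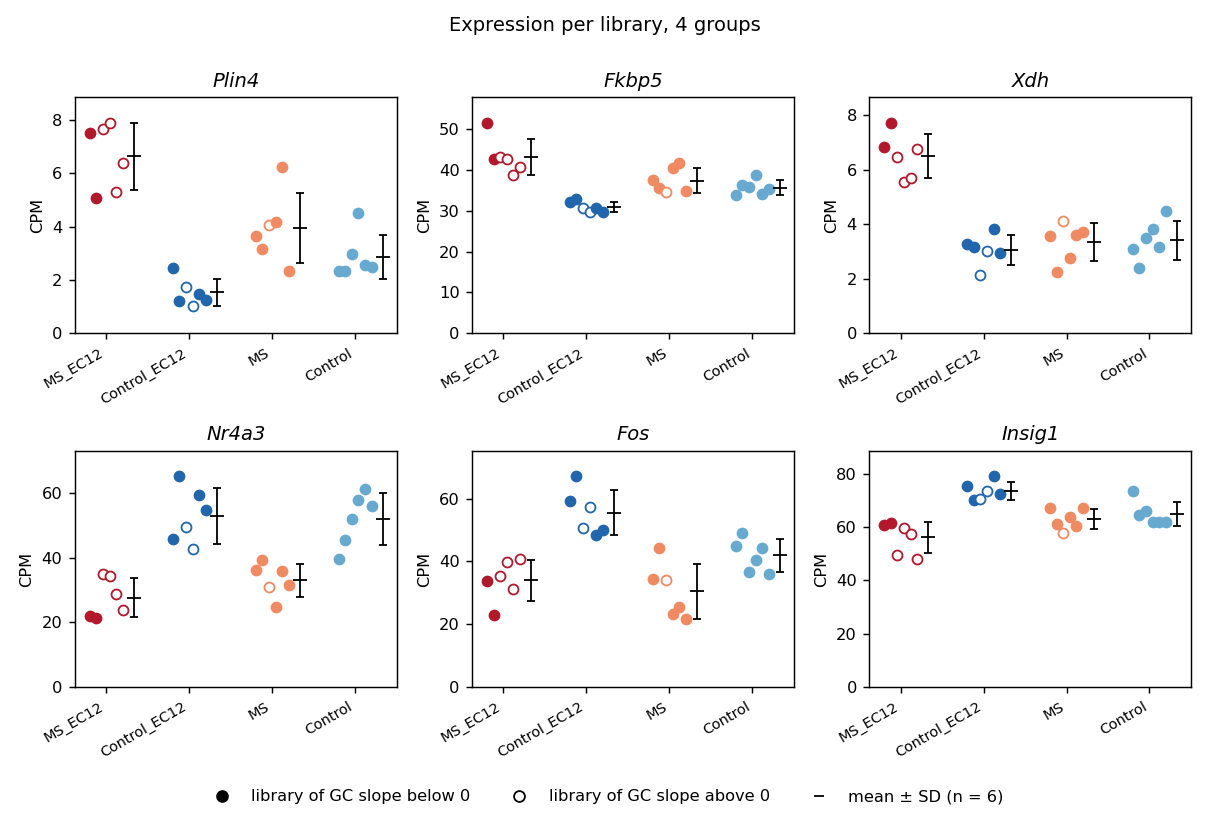
CPM of Plin4, Fkbp5, Xdh, Nr4a3, Fos and Insig1 in each library of the 4 groups, with the group mean ± SD (n = 6) beside the points. Filled points are libraries of GC slope below 0 and open points above 0. In all 6 genes the MS_EC12 libraries do not overlap those of Control_EC12, and for Fkbp5 the MS_EC12 libraries lie between 38.6 and 51.4 CPM and the Control_EC12 libraries between 29.6 and 32.7 CPM.

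Of 20 listed chaperones and stress proteins of the endoplasmic reticulum 4 rose (Manf, Pdia4, Sdf2l1 and Creld2, the sequences of 3 of which are printed above), 0 fell, and 13 were higher at an unadjusted p under 0.05 with 0 lower. The median log2 fold change was 0.26, with 16 of 20 above 0. In the low-slope libraries it was 0.18, with 19 of 20 above 0 (50% of all genes there), and in the libraries of slope above 0 it was 0.23. None of the 4 passed in either subset. With the GC slope as a covariate 1 of the list was called, Manf (edgeR adjusted p = 0.0145). With a GC offset per gene 4 were called higher, Manf, Pdia4 and Sdf2l1 among them, and Creld2 did not pass (edgeR adjusted p = 0.0909). The summed level of the 20 genes ran from 2071 to 2436 CPM in MS_EC12 and from 1860 to 2243 CPM in Control_EC12, so the groups overlapped.

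Manf, a secreted neurotrophic factor held in the endoplasmic reticulum, had 33.2, 41.9 and 55.7 CPM in MS_EC12 against 26.6, 29.0 and 35.1 CPM in Control_EC12 (0.54 ± 0.10, edgeR adjusted p = 0.0172). One MS_EC12 library lay below the highest Control_EC12 library. Pdia4, a protein disulfide isomerase, had 34.8, 40.6 and 49.8 CPM in MS_EC12 against 25.9, 29.6 and 34.4 CPM in Control_EC12, with no overlap (0.46 ± 0.09, edgeR adjusted p = 0.0313). Sdf2l1, a partner of the chaperone BiP, had 10.7, 13.3 and 24.2 CPM in MS_EC12 against 6.56, 8.12 and 10.1 CPM in Control_EC12, again with no overlap (0.87 ± 0.19, edgeR adjusted p = 0.041). Creld2, a resident disulfide isomerase, had 12.6, 13.2 and 18.8 CPM in MS_EC12 against 8.26, 9.90 and 12.9 CPM in Control_EC12 (0.51 ± 0.11, edgeR adjusted p = 0.0444), and 4 of 6 MS_EC12 libraries lay above all of Control_EC12.

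For all 4 genes the medians of the mice without the supplement were nearer to MS_EC12 than to Control_EC12. Pdia4 had 38.2, 40.8 and 46.1 CPM in MS and 33.4, 43.2 and 47.8 CPM in Control, close to its level in MS_EC12. Creld2 had medians of 12.8 CPM in MS and 12.9 CPM in Control. Over the 20 genes, the Control_EC12 median was the lowest of the 4 groups in 14 and the MS_EC12 median the highest in 11, where over all genes the shares were 17.1% and 37.4%. The list's median log2 fold change for MS over Control was 0.03.

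**Figure D3:**
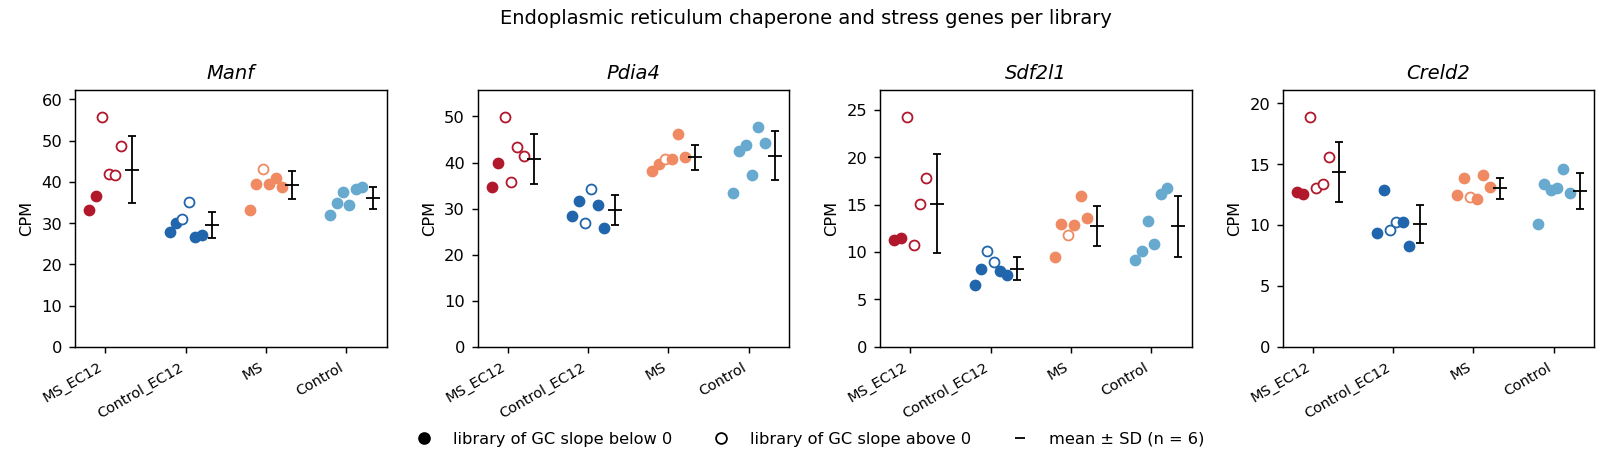
CPM of Manf, Pdia4, Sdf2l1 and Creld2 in each library of the 4 groups, with the group mean ± SD (n = 6) beside the points. Open points are libraries of GC slope above 0. Control_EC12 holds the lowest mean in all 4 panels, for example 29.7 CPM for Pdia4 against 40.8 CPM in MS_EC12.

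Among the other genes that rose, Xdh, xanthine oxidoreductase, the enzyme that ends purine breakdown in uric acid, had 5.56, 6.61 and 7.72 CPM in MS_EC12 against 2.14, 3.09 and 3.82 CPM in Control_EC12. The groups did not overlap (1.09 ± 0.15, edgeR adjusted p = 0.00113), and the low-slope libraries gave 1.14 (edgeR adjusted p = 0.0199). MS (2.25, 3.59 and 4.13 CPM) and Control (2.40, 3.34 and 4.47 CPM) overlapped Control_EC12 and not MS_EC12. Xdh was the 1 gene of 13 on a list of purine breakdown and salvage that rose, and 0 of that list fell.

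Camk1g, a calcium/calmodulin-dependent kinase of neurons, had 34.1, 44.4 and 54.4 CPM in MS_EC12 against 21.3, 25.3 and 28.1 CPM in Control_EC12, without overlap (0.84 ± 0.12, edgeR adjusted p = 0.00113; low-slope 0.58, adjusted p = 0.043). Smim3, a small membrane protein, had 9.69, 11.2 and 16.2 CPM in MS_EC12 against 4.20, 6.21 and 7.39 CPM in Control_EC12 (0.97 ± 0.14, edgeR adjusted p = 0.00162), likewise without overlap, and it passed in the low-slope libraries (adjusted p = 0.0199). Smad3, which carries signals of transforming growth factor beta to the nucleus, had 70.0 to 99.7 CPM in MS_EC12 and 51.4 to 70.0 CPM in Control_EC12 (0.51 ± 0.09, edgeR adjusted p = 0.0107). Its low-slope value was 0.28, and MS (69.2 to 88.0 CPM) and Control (71.7 to 91.6 CPM) overlapped MS_EC12. Prr5, a subunit of the kinase complex mTORC2, rose by 0.63 ± 0.10 on the log2 scale (edgeR adjusted p = 0.00575) and the surface proteoglycan Sdc4 by 0.53 ± 0.10 (adjusted p = 0.0144). Zdhhc14, a palmitoyltransferase, and Sgsm1, a regulator of small GTPases, rose by 0.57 ± 0.10 (edgeR adjusted p = 0.0107) and 0.60 ± 0.11 (adjusted p = 0.0144), and the low-slope value of Sgsm1 was 0.24. The low-slope values of Prr5, Sdc4 and Zdhhc14 were 0.52, 0.24 and 0.45 (edgeR adjusted p = 0.117, 0.258 and 0.0552).

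A few of these genes are known from blood vessels or blood cells. Hspa12b, a heat shock protein of endothelium, had 7.24, 9.64 and 10.8 CPM in MS_EC12 against 4.51, 5.18 and 6.39 CPM in Control_EC12, without overlap (0.78 ± 0.12, edgeR adjusted p = 0.00215). Ly6c1, a surface protein of brain endothelium, had 27.7, 32.9 and 37.4 CPM in MS_EC12 against 14.96, 19.3 and 26.4 CPM in Control_EC12 (0.71 ± 0.14, edgeR adjusted p = 0.0212). Pglyrp1, a peptidoglycan recognition protein that binds bacterial cell walls, had 5.27, 6.41 and 8.59 CPM in MS_EC12 against 1.92, 2.71 and 4.49 CPM in Control_EC12 (1.17 ± 0.20, edgeR adjusted p = 0.00665). Notch4, an endothelial Notch receptor (0.75 ± 0.15, edgeR adjusted p = 0.0212), and Tinagl1, a matrix protein (0.90 ± 0.18, adjusted p = 0.0262), were chosen after their values were seen. In the low-slope libraries the values of Hspa12b, Ly6c1, Pglyrp1, Notch4 and Tinagl1 were 0.56, 0.54, 0.88, 0.58 and 0.77, and none passed (edgeR adjusted p from 0.0854 to 0.266). Of 25 endothelial and blood-brain barrier genes, 2 rose, Ly6c1 and Mfsd2a, and 0 fell. With the GC slope as a covariate 0 of them were called (Ly6c1 edgeR adjusted p = 0.0546, Mfsd2a 0.113). With a GC offset per gene 3 were called higher, Ly6c1 and Mfsd2a among them (edgeR adjusted p = 0.0117 and 0.0376). The median of that list was 0.16 in all libraries and −0.08 in the low-slope libraries. Ly6a (0.66, edgeR adjusted p = 0.0556) and Ramp2 (0.60, adjusted p = 0.072) did not pass over all libraries without a GC term. With the GC offset Ly6a passed (edgeR adjusted p = 0.027) and Ramp2 did not (adjusted p = 0.105). In bulk tissue, more cells of a type and more RNA per cell cannot be told apart. The summed level of haemoglobin and haem synthesis genes ran from 355 to 739 CPM in MS_EC12 and from 340 to 488 CPM in Control_EC12. Of the 8 tested, 7 were above 0, with a median log2 fold change of 0.44 (0.51 in the low-slope libraries), 5 were higher at an unadjusted p under 0.05 and 0 were called by edgeR, and their part in these results was not tested.

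Trpv4, a cation channel present in choroid plexus epithelium, had 1.52, 2.49 and 5.67 CPM in MS_EC12 against 0.994, 1.10 and 1.38 CPM in Control_EC12 (1.34 ± 0.26, edgeR adjusted p = 0.0212). The highest value belonged to replicate 6 of MS_EC12, the library with the choroid plexus genes, and without it the log2 fold change was 1.02 (edgeR adjusted p = 0.0595). The low-slope libraries, which do not include it, gave 1.05 (edgeR adjusted p = 0.189). Ttr, transthyretin, the leading choroid plexus transcript, had 642 CPM in that library, against 0.317 to 2.84 CPM in the other 5 MS_EC12 libraries and 0.107 to 4.64 CPM in Control_EC12. TrnL2, a mitochondrial leucine transfer RNA chosen after its values were seen, passed (2.16 ± 0.44, edgeR adjusted p = 0.0313) through replicates 2, 4 and 6 of MS_EC12 at 10.1, 7.91 and 16.5 CPM. The other 3 MS_EC12 libraries, at 1.24 to 1.73 CPM, were within or just above the Control_EC12 range of 1.00 to 1.69 CPM. The low-slope log2 fold change of TrnL2, 2.07, rested on replicate 2 of MS_EC12, since replicate 1 had 1.68 CPM.

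The genes that fell were led by an immediate early gene. Nr4a3, an orphan nuclear receptor induced by neuronal activity (chr4:48045078-48086447), had 21.4, 26.3 and 34.9 CPM in MS_EC12 against 42.7, 52.1 and 65.1 CPM in Control_EC12. The groups did not overlap (−0.94 ± 0.14, edgeR adjusted p = 0.00162), and the low-slope libraries gave −1.37 (edgeR adjusted p = 0.00303). Fos, the transcription factor subunit whose upstream sequence is printed above (chr12:85473890-85477274), had 22.97, 34.5 and 40.8 CPM in MS_EC12 against 48.4, 54.1 and 67.2 CPM in Control_EC12, also without overlap (−0.71 ± 0.15, edgeR adjusted p = 0.042). Its low-slope value was −0.99 (edgeR adjusted p = 0.0777).

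Of 35 immediate early genes, 2 fell, Nr4a3 and Fos, and 0 rose. At an unadjusted p under 0.05, 15 were lower and 3 higher. The median log2 fold change was −0.28 in all libraries, −0.38 in the low-slope libraries and −0.12 in the libraries of slope above 0. Egr2, an activity-induced zinc finger factor, had 7.69 to 11.9 CPM in MS_EC12 and 14.4 to 21.2 CPM in Control_EC12, and did not pass (−0.84, edgeR adjusted p = 0.10). Arc, a synaptic immediate early gene, did not pass either (−0.52, edgeR adjusted p = 0.345), and Nptx2, a secreted pentraxin, had a positive value (0.40, adjusted p = 0.151). Jun, a partner of Fos, passed in the low-slope libraries (−0.80, edgeR adjusted p = 0.000689) and not over all libraries (−0.32, adjusted p = 0.241). With all libraries it passed with the GC slope as a covariate (−0.49, edgeR adjusted p = 0.00632) and with the GC offset (−0.44, adjusted p = 0.0138). Of the list, 4 were called lower in the low-slope libraries, 4 with the covariate and 6 with the offset, and none higher. The level of Jun was 38.2 and 41.0 CPM in replicates 1 and 2 of MS_EC12, 61.5 to 67.9 CPM in the 4 others, and 63.1 to 77.0 CPM in Control_EC12.

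In the mice without the supplement neither Nr4a3 nor Fos passed. Nr4a3 had 24.6, 33.5 and 39.1 CPM in MS and 39.7, 53.8 and 61.2 CPM in Control (−0.66, edgeR adjusted p = 0.0969), and its interaction log2 fold change was −0.28 (edgeR adjusted p = 0.83). Fos gave −0.46 for MS over Control (edgeR adjusted p = 0.796). The median of the 35 genes for MS over Control was −0.31.

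A gene of sterol control was also lower. Insig1, the protein that holds the sterol sensor in the endoplasmic reticulum (chr5:28071412-28078662), had 48.1, 58.7 and 61.4 CPM in MS_EC12 against 70.2, 73.1 and 79.2 CPM in Control_EC12. The groups did not overlap (−0.39 ± 0.07, edgeR adjusted p = 0.0104), and the low-slope value was −0.28. The medians of MS (range 57.9 to 67.3 CPM) and Control (61.9 to 73.7 CPM) lay between those of the supplemented groups. Of 27 genes of cholesterol synthesis, uptake and export 2 fell, Insig1 among them, and 0 rose, with a median of −0.07. The synthesis enzyme gene Cyp51 did not pass (−0.29, edgeR adjusted p = 0.197).

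Thbs1, thrombospondin, an astrocyte-secreted protein that promotes synapse formation, had 2.097, 2.47 and 3.58 CPM in MS_EC12 against 4.04, 5.86 and 6.03 CPM in Control_EC12 (−1.02 ± 0.16, edgeR adjusted p = 0.00215). The groups did not overlap, and the low-slope value was −1.42 (edgeR adjusted p = 0.00589). Pak7, a brain kinase downstream of small GTPases, had 24.01, 32.3 and 43.3 CPM in MS_EC12 against 38.3, 58.2 and 69.9 CPM in Control_EC12 (−0.76 ± 0.14, edgeR adjusted p = 0.0172), with an overlap of 2 MS_EC12 libraries. Rflnb, a regulator of the actin crosslinker filamin, had 13.5 to 14.2 CPM in MS_EC12 and 15.03 to 19.8 CPM in Control_EC12 (−0.32 ± 0.07, edgeR adjusted p = 0.0453; low-slope −0.36, adjusted p = 0.127). Lama4, a laminin of vessel walls, fell by 0.60 on the log2 scale, Ninl, a centrosomal protein, by 0.79, and Arhgap42, a regulator of small GTPases, by 0.79 (edgeR adjusted p = 0.0228, 0.0313 and 0.041). Their low-slope values were −0.59, −0.62 and −0.49, and none passed (edgeR adjusted p = 0.0645, 0.192 and 0.0619). Pclaf, a factor of DNA replication that overlaps Trip4, was at 0.412 to 0.826 CPM in MS_EC12 and 0.706 to 1.63 CPM in Control_EC12 and was called lower (edgeR adjusted p = 0.0456).

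Set beside the same rearing contrast without the supplement, the 2 contrasts called different genes. MS compared with Control called 6 genes (0.0326%), 2 higher (0.0109%) and 4 lower (0.0218%), and none of them was among the 48. Of the 37 genes that rose in MS_EC12, 28 were above 0 for MS over Control, with a median of 0.07, and of the 11 that fell, 11 were below 0, with a median of −0.19. In 34 of the 37 the MS_EC12 median was the highest and the Control_EC12 median the lowest of the 4 groups, and in 9 of the 11 the reverse held. Choosing genes by the contrast of those groups fixes part of that order. The interaction, which tests whether the separation difference depends on the supplement, called 2 genes (0.0109%), and 882 had an unadjusted p under 0.05 (4.8%). Neither was among the 48, whose smallest adjusted interaction p was 0.112 (edgeR, Plin4, interaction log2 fold change 1.65 ± 0.31).

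The 2 interaction genes were Banp and Bhlhe40. Banp, a nuclear matrix protein that binds unmethylated CG motifs, had 18.3, 22.1 and 27.4 CPM in MS_EC12, 15.9, 18.1 and 19.6 CPM in Control_EC12, 16.7, 19.1 and 22.7 CPM in MS, and 25.2, 27.5 and 30.9 CPM in Control. Separation went with a log2 fold change of 0.32 ± 0.09 with the supplement (edgeR adjusted p = 0.152) and −0.52 ± 0.09 without it (adjusted p = 0.0251), an interaction of 0.84 ± 0.13 (edgeR adjusted p = 0.0152). Bhlhe40, a repressor of the circadian clock, had 75.2, 112 and 130 CPM in MS_EC12, 82.5, 94.4 and 119 CPM in Control_EC12, 74.5, 78.8 and 95.6 CPM in MS, and 124.5 to 153 CPM in Control. Its values were 0.14 ± 0.11 with the supplement (edgeR adjusted p = 0.459) and −0.76 ± 0.11 without it (adjusted p = 0.0043), an interaction of 0.89 ± 0.15 (edgeR adjusted p = 0.0379). In the low-slope libraries the interactions were 0.63 and 0.61 and did not pass. In both genes Control had the highest median of the 4 groups.

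The other genes called for MS over Control were Foxo6 and Pdgfb, which were lower, and 4930445K14Rik and Lrch4, which were higher. With the supplement their log2 fold changes were −0.12 and 0.13, and 0.30 and 0.20, and none passed. Per2, a core clock gene, had 34.5, 43.6 and 57.0 CPM in MS_EC12 against 18.5, 30.02 and 39.01 CPM in Control_EC12 (0.58 ± 0.14, edgeR adjusted p = 0.0943), with −0.40 for MS over Control and an interaction of 0.98 ± 0.20 (adjusted p = 0.152). Of 19 clock genes 0 were called over all libraries without a GC term. In the low-slope libraries 1 was called lower, and with the GC offset 2 were. Cry1, a repressor of the clock (0.31, edgeR adjusted p = 0.15), and Nfil3, an output factor (−0.49, adjusted p = 0.109), did not pass without a GC term. In each the groups did not overlap, as in 0.468% of all genes. Nfil3 passed with the GC offset (edgeR adjusted p = 0.0259).

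Of 12 candidate genes of social behaviour and stress 2 were called, Fkbp5 and Fos, where 0.261% of all genes tested were called. The oxytocin receptor gene Oxtr had 6.55, 8.32 and 10.3 CPM in MS_EC12 against 7.27, 8.80 and 10.5 CPM in Control_EC12 (−0.06 ± 0.11, edgeR adjusted p = 0.757). The growth factor gene Bdnf gave −0.09 ± 0.16 (edgeR adjusted p = 0.742) and the vasopressin receptor gene Avpr1a 0.02 ± 0.34 (adjusted p = 0.975). Mbp, a myelin protein, gave 0.28 (edgeR adjusted p = 0.31) and the cytokine gene Il1b −0.63 (adjusted p = 0.331), at 0.127 to 0.408 CPM in MS_EC12 and 0.283 to 0.398 CPM in Control_EC12. A p that misses the threshold does not show equal levels, and the SE of Avpr1a allows sizeable differences either way.

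Across 38 lists of pathway and cell type genes, 25 had a median log2 fold change above 0. In both GC slope subsets as well as in all libraries, 11 were above 0 and 8 below 0. Of 85 nuclear genes of the respiratory chain, 78 were above 0, with a median of 0.19, and of 83 ribosomal protein genes 73 were, with a median of 0.18. No gene of either list was called over all libraries, and 1 respiratory chain gene was called higher in the low-slope libraries. The medians of the 2 lists were 0.10 and 0.08 in the low-slope libraries and 0.01 in the libraries of slope above 0. Of 25 meningeal and perivascular fibroblast genes 4 were above 0, with a median of −0.19 and 0 called, and their summed level ran from 973 to 1522 CPM in MS_EC12 and from 1290 to 1771 CPM in Control_EC12. Interferon-stimulated genes (31 tested, median −0.15) and genes of bacterial sensing and innate cytokine signalling (34 tested, median −0.02) had 0 called. The 15 GABA receptor subunits had a median of −0.33 over all libraries and −0.02 in the low-slope libraries, with a median GC content of 42.9%, and 0 were called.

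Markers of tissue next to the prefrontal cortex varied between libraries. The summed level of 20 striatal genes ran from 1788 to 3812 CPM in MS_EC12 and from 1867 to 3309 CPM in Control_EC12, and the list's median log2 fold change was 0.26. For 17 olfactory bulb genes the sums ran from 139 to 538 CPM in MS_EC12 and from 239 to 652 CPM in Control_EC12, with a median of −0.24 in all libraries and 0.25 in the libraries of slope above 0. None of these genes was called, and the part of the dissection in the other results was not tested.

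**Figure D4:**
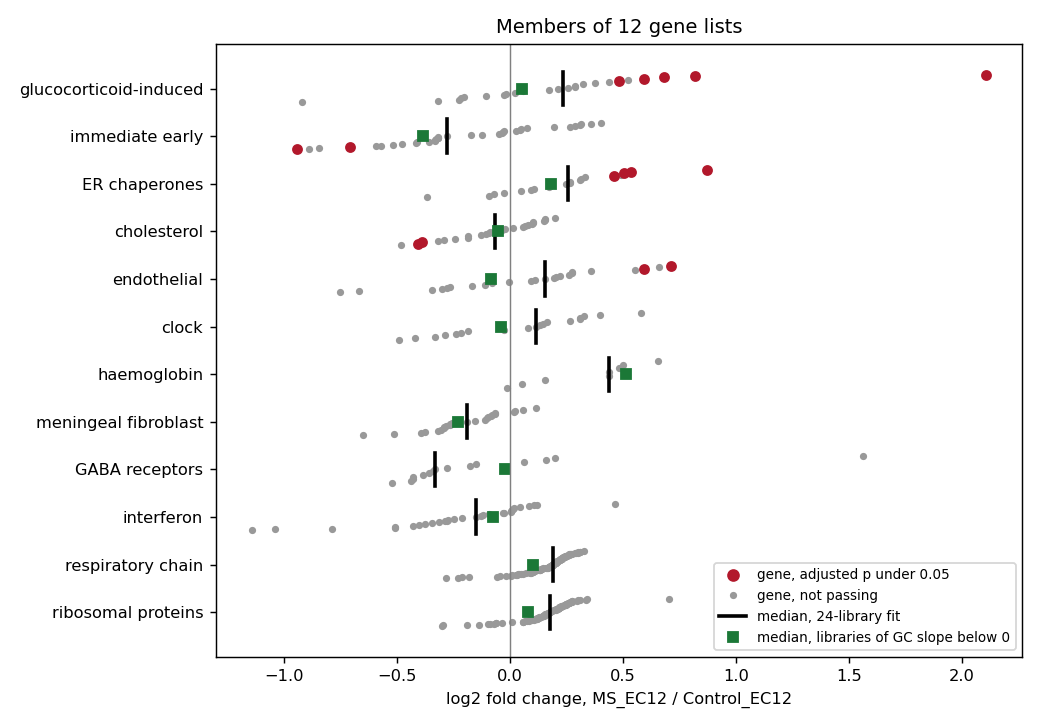
Log2 fold change of MS_EC12 over Control_EC12 for each tested member of 12 gene lists, with the list median as a black bar. Red points are genes with an adjusted p under 0.05, of which the glucocorticoid-induced list holds 5, the ER chaperones 4, and the immediate early and cholesterol lists 2 each on the lower side.

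The mean GC slope was 0.222 ± 0.325 in MS_EC12 and −0.00487 ± 0.234 in Control_EC12 (SD, n = 6 each), in log2 CPM per 10 percentage points of GC, and the difference of 0.227 was within the spread (exact 2-sided permutation p = 0.199, smallest possible 0.00216). Across 17012 genes with a GC value, log2 fold change and GC content correlated at r = 0.479 (Spearman 0.561), with r = −0.050 in the low-slope libraries and 0.294 in those of slope above 0, given as descriptions since genes are not independent replicates. The median GC content was 54.9% for the genes that rose, 49.9% for those that fell and 49.8% for all tested. With the GC slope as a covariate, 24 genes rose (0.131%) and 17 fell (0.0925%), and with a GC offset per gene 40 rose (0.218%) and 28 fell (0.152%), beside 37 and 11 without these terms.

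**Figure D5:**
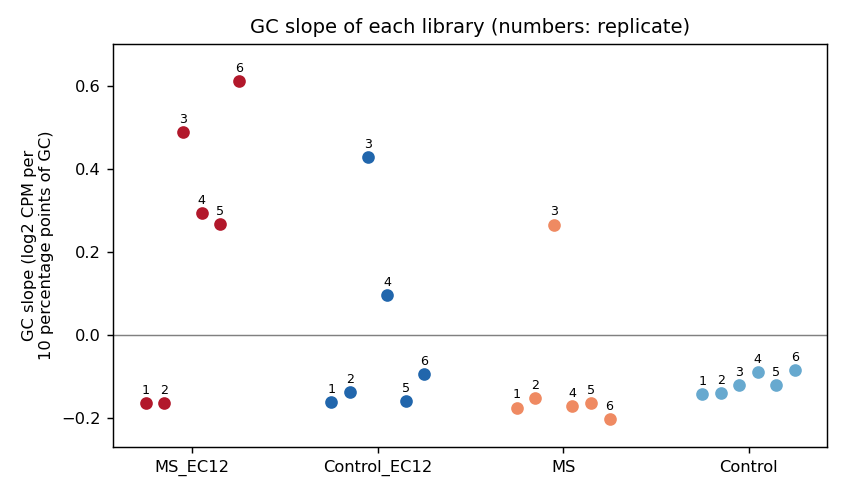
GC slope of each library in the 4 groups, in log2 CPM per 10 percentage points of GC, each point a library. In MS_EC12 4 of 6 libraries lie above 0, in Control_EC12 2 of 6, in MS 1 and in Control 0.

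Of the 31 genes called in the low-slope libraries, 12 rose (0.0628%) and 19 fell (0.0995%), and 21 were not among the 48. Besides Jun, those of smallest p that fell were Celsr1, a planar polarity cadherin (−0.75, edgeR adjusted p = 0.00365), Igfbp5, a binding protein of insulin-like growth factors (−0.57, adjusted p = 0.00589), and Litaf, a lysosomal membrane protein (−0.57, adjusted p = 0.00718). Among those that rose was Mertk, a phagocytic receptor of microglia and astrocytes, at 54.5 and 52.7 CPM in replicates 1 and 2 of MS_EC12 and 33.01 to 39.7 CPM in the 4 Control_EC12 libraries (0.58, edgeR adjusted p = 0.00365). These low-slope values use 2 MS_EC12 libraries. Over all 24 libraries with the GC slope as a covariate, Celsr1 (−0.55, edgeR adjusted p = 0.0145) and Mertk (0.45, adjusted p = 0.00191) passed, and Igfbp5 (adjusted p = 0.253) and Litaf (adjusted p = 0.163) did not. With the GC offset Celsr1 passed (edgeR adjusted p = 0.0153) and Mertk did not (adjusted p = 0.271). Of the 21 genes, 13 had the same direction in the libraries of slope above 0, where Igfbp5 was at 0.07 and Litaf at 0.08.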

How the data were processed

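Prefrontal cortex RNA-seq of 24 libraries was analysed, with groups and replicate numbers taken from the labels. ISOGEN II served for extraction and TruSeq Stranded mRNA for the libraries, per the labels' protocols. HISAT2 2.1.0 and StringTie 2.1.3b, with Trimmomatic 0.38, FastQC 0.11.7, DESeq2 and the build mm10, are listed in the submitters' processing notes, without their roles. Whether counting used strand is not stated in the sources used here. The authors deposited raw read counts per gene, which were not normalized and served for every main result. They also deposited TPM values, used for marker levels and an alternative, and FPKM values, which were not used.

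Genes were filtered with filterByExpr in edgeR 4.0.16 (R 4.3.3, minimum count 10, minimum total 15). They were tested with edgeR's 2-sided quasi-likelihood test on TMM-scaled counts, all 24 libraries in 1 fit with 1 coefficient per group, and Benjamini-Hochberg adjustment over all genes tested. A gene was called changed at an adjusted p under 0.05. Log2 CPM used a prior count of 2. The fit was tested on simulated counts that held no GC slope, so that test does not cover spread linked to GC content. Identifiers of 99.79% of genes matched the RefSeq table of GRCm38.p6. No 2 of the 12 libraries agreed within sampling noise (smallest chi-square per gene 5.846). Reads of overlapping genes (Plin4 with Hdgfl2, Zdhhc14 with Gm52310, Zbtb16 with Gm32280, Pclaf with Trip4, 4930445K14Rik with Pcif1) and of near-identical copies such as haemoglobin genes may be split, so those values are less certain.

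Genes, lists and comparisons were chosen with earlier results of these data known. The rule named the 15 genes of smallest p per direction, the 8 of smallest p per direction in the low-slope libraries, up to 4 members per list and 12 candidates. Named outside it, after their values were seen, were Zbtb16, Hif3a, Notch4, Tinagl1, TrnL2, Etv5, Ezr, Gpt2 and Pkp2. Some items are not reported here. Alternatives were DESeq2 1.42.0, other scalings and filters, limma 3.58.1 on TPM, GC corrections, a replicate block and leaving out each library.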

Additional observations from a re-analysis of the deposited data

Results flagged for a closer look

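In 8 of 160 groups of 6 libraries, for the genes named, 1 library stood apart from the others by Dixon's criterion, and chance flags about 1 in 20 groups. Fkbp5 had 51.4 CPM in replicate 1 of MS_EC12, against 38.6 to 43.0 CPM in the other 5. Lama4 had 7.16 CPM in the same library, against 5.25 to 5.88 CPM. In replicate 6 of MS_EC12, Trpv4 had 5.67 CPM against 1.52 to 3.07 CPM in the other 5, Ttr 642 against 0.317 to 2.84 CPM, and Oxt, the oxytocin gene, 19.1 against 0.126 to 2.69 CPM. In Control_EC12, Sdc4 had 39.1 CPM in replicate 6 against 45.7 to 47.7 CPM, Tinagl1 4.08 CPM in replicate 1 against 5.69 to 6.48 CPM, and Oxt 1.30 CPM in replicate 4 against 0 to 0.325 CPM.

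The separation difference depended on the supplement for 2 genes by the interaction term, Banp (0.84, edgeR adjusted p = 0.0152) and Bhlhe40 (0.89, edgeR adjusted p = 0.0379). Banp lost its call on either TPM scale and in the libraries of GC slope below 0. Bhlhe40 lost it there too, without the filter on low counts, and without any 1 of replicates 3, 4, 5 and 6 of MS_EC12 or 1, 2, 4 and 6 of Control_EC12.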

How the results depend on the processing

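The count of 48 changed genes (37 higher, 11 lower) was 46 with RLE scaling, 34 without the filter on low counts, 49 with a stricter filter, 41 with the GC slope as a covariate (24 higher, 17 lower) and 68 with a GC offset (40 higher, 28 lower). It moved to 196 with DESeq2 (141 higher, 55 lower), 2 with the 12 libraries only, 16 and 17 with limma on log2(TPM + 1) and log2(TPM + 0.1), 31 in the libraries of GC slope below 0 (12 higher, 19 lower) and 0 in those above 0, an alternative chosen after seeing the data, where 764 had an unadjusted p under 0.05. Leaving out 1 library gave 14 to 186 genes: 169, 158, 18, 33, 25 and 16 without replicates 1 to 6 of MS_EC12, and 17, 29, 186, 129, 20 and 14 without replicates 1 to 6 of Control_EC12. The 4 libraries whose omission raised it were the MS_EC12 libraries of GC slope below 0 and the Control_EC12 libraries above 0. All 48 kept their direction in each alternative that tested them, which their choice from the same libraries fixes in part. Under the stricter filter 1 of them was not tested. Of 1945 values of the genes in the outlier check, which left out Etv5, Ezr, Gpt2 and Pkp2, 289 lost and 56 gained the threshold. None changed sign while passing. The cause of these moves was not tested, and the subsets also held fewer libraries.

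Replicate numbers were not treated as pairs, since not every same-number correlation was over 0.1: same-numbered libraries of MS_EC12 and Control_EC12 correlated at 0.36, 0.17, 0.46, 0.10, −0.01 and −0.30 in their deviations from the group means, and 2 of 6 correlated best with their own number. Replicates 3 and 4 had a GC slope above 0 in both groups. With the number as a block the count was 232 (136 higher, 96 lower), and 82 (50 higher, 32 lower) with the block and the GC slope covariate.

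The 2 interaction genes became 19 with DESeq2, 1 without the filter, 0 with either TPM scale (809 and 791 at an unadjusted p under 0.05), 7 with the GC slope covariate, 9 with the replicate block, 31 with the block and the covariate, and 1 to 3 without 1 library. The 2 genes called in the libraries of GC slope below 0 were others, both lower. The GC slope difference stayed between 0.149 and 0.314 without 1 library. The 25 list medians above 0 became 16 on either TPM scale and 15 in the libraries of GC slope below 0.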

Other observations

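Genes that changed in MS_EC12 and belong to no list above included Etv5, a transcription factor of receptor tyrosine kinase signalling, with 119, 162 and 190 CPM in MS_EC12 against 79.6, 102 and 125 CPM in Control_EC12 (0.60 ± 0.13, edgeR adjusted p = 0.041). The low-slope libraries gave 0.22. Ezr, a linker of membrane and actin found in fine astrocyte processes, had 66.7, 75.3 and 91.8 CPM in MS_EC12 against 49.7, 56.9 and 65.4 CPM in Control_EC12, without overlap (0.45 ± 0.09, edgeR adjusted p = 0.0314; low-slope 0.55). Gpt2, a mitochondrial alanine aminotransferase, had 59.3 to 72.5 CPM in MS_EC12 and 44.0 to 59.5 CPM in Control_EC12 (0.33 ± 0.07, edgeR adjusted p = 0.048; low-slope 0.35). Pkp2, a desmosomal plakophilin, had 5.00 to 6.53 CPM in MS_EC12 and 3.05 to 4.74 CPM in Control_EC12, without overlap (0.56 ± 0.12, edgeR adjusted p = 0.0339; low-slope 0.70). These genes were chosen after their values were seen.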
